A study of Mus musculus with 16 samples.

Results

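The mouse 12S ribosomal RNA gene, mt-Rnr1, was examined base by base in mitochondrial DNA from 16 bulk ATAC-seq libraries. Its members were all non-reference bases at positions 70 to 1024 of the mitochondrial chromosome (MT, build GRCm38, plus strand). These make 955 positions and 2865 possible alleles, out of 48897 on the whole chromosome of 16299 positions. In the RefSeq annotation of GRCm38.p6 the gene is a ribosomal RNA gene with no coding sequence, lying between the transfer RNA genes TrnF (positions 1 to 68) and TrnV (positions 1025 to 1093). All mice were 3 months old and homozygous for PolG D257A, which removes proofreading by the polymerase that copies mitochondrial DNA. Cells of digested femurs were sorted by flow cytometry into 8 subsets labelled CD24_CD29, CD24, CD29, CD105, CD45, Thy_6C3, Thy and 6C3, with replicates 1 and 2 of each. The labels name no gates, no number of mice and no library from mice with an intact polymerase, and they do not say what a replicate number stands for. The spread behind each p-value is therefore one among libraries and may be technical. The tables hold mitochondrial bases and no marker gene, so the sorted labels could not be checked against the data.

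12S ribosomal RNA is the RNA core of the small subunit of the mitochondrial ribosome, which holds the messenger RNA and pairs it with transfer RNAs. Every protein that mitochondria make for themselves passes through this subunit, and these proteins are all parts of the respiratory chain and ATP synthase. A mitochondrion carries many copies of its DNA, so a mutation is usually present in a fraction of copies, a state called heteroplasmy. An allele fraction in a sorted population is an average over copies: many altered copies in a few cells and few altered copies in many cells cannot be told apart.

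Alleles are named by reference base, chromosome position (1 is the first base) and altered base. The windows below show the alleles on which the results turn, each with 15 reference bases on either side, 5′ to 3′ on the plus strand, and the base that is altered in capitals. The bases come from the deposited tables. The first windows hold the alleles with the highest mean fraction in either replicate number.
C227T (MT 212 to 242): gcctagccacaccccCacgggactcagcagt
G272A (MT 257 to 287): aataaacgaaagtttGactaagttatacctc
A315C (MT 300 to 330): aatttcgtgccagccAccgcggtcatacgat
G328A (MT 313 to 343): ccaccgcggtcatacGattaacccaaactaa
C416T (MT 401 to 431): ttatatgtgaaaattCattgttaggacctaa
C609T (MT 594 to 624): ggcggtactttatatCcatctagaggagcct
C635T (MT 620 to 650): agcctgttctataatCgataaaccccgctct
C954A (MT 939 to 969): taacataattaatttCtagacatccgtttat
The next windows hold 3 further alleles that differed between replicate numbers, shown because they lie in stretches conserved among small-subunit ribosomal RNAs. They were picked after their values were seen.
A498G (MT 483 to 513): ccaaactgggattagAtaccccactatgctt
C898T (MT 883 to 913): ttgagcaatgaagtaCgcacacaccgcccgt
A978G (MT 963 to 993): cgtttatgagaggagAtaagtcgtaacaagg
The stretches around C898T and A978G belong to the part of the molecule that forms the decoding site in well-studied ribosomes. The window of A315C also lies in a conserved stretch, which it shares in part with G328A.

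Depth set how low a fraction could be read. The mean coverage of the gene ran from 5354 counts per position in CD24_CD29 replicate 2 to 58812 in CD29 replicate 1, with a median of 17622 over 16 libraries. The lowest coverage at any position was 3686. Coverage of mt-Rnr1 was 0.724 to 0.829 of that of all other positions, lower in 16 of 16 libraries. An allele with no count could still, at 3 counts of the mean coverage, be present at up to 0.0560% in CD24_CD29 replicate 2 and up to 0.00510% in CD29 replicate 1. The reads carry no molecular identifiers, so such limits, and the intervals given later, reflect counting error only.

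Allele by allele, edgeR called differences in the gene between replicate numbers and none between sorted subsets. The contrast of numbers sets 8 libraries against 8, while a subset contrast sets 2 libraries against the other 7 subsets. The counts of calls are therefore not comparable between these contrasts. Of 198 alleles tested, 14 differed between number 1 and number 2 (edgeR quasi-likelihood test, adjusted over 3487 alleles of the whole chromosome), which is 7.07% against 5.76% of all alleles tested. Of these, 6 were higher and 8 lower in number 1, where 2.72% and 3.04% of all tested alleles were. The share in the gene was thus near that of the chromosome. Both shares depend on Thy replicate 2, which adds many tested alleles. Without it, 14 of 73 tested alleles of the gene differed (19.2%), against 17.3% of all tested alleles. Of the 14, 13 were transitions, changes between A and G or between C and T, as were 163 of the 201 alleles called on the whole chromosome (81.1%). Among the 198 alleles tested in the gene, 50 were transitions, but Thy replicate 2 adds many transversions to these. Of the alleles counted in number 1, 19 of 27 were transitions. In number 2 without Thy replicate 2, 33 of 50 were. DESeq2 called 16 alleles of the gene in this contrast, where it called 7.08% of all tested alleles.

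Of the alleles higher in number 1, C227T stood at 2.90% to 7.07% in the 8 libraries of number 1, with a median of 4.78%. In number 2 it stood at 0.0770% to 0.284%, with a median of 0.188%. No library of number 2 came near any of number 1. The means were 4.65% ± 1.21 in number 1 and 0.177% ± 0.0603 in number 2 (SD, n = 8 each; log2 ratio 4.82, adjusted p = 3.58e-07 by edgeR). C416T had 0.644% to 2.10% in number 1 and 0% to 0.0637% in number 2, where 2 libraries held no count (log2 ratio 6.45, adjusted p = 2.36e-06 by edgeR). C954A, the transversion among the 14, had 1.65% to 3.17% in number 1 and 0.370% to 0.929% in number 2 (log2 ratio 2.37, adjusted p = 6.09e-05 by edgeR). For both alleles the numbers again did not overlap, although C954A was present in every library of number 2. A581G, at a mean of 0.902% ± 0.387 in number 1 and 0.0629% ± 0.0577 in number 2 (SD, n = 8 each), completed the non-overlapping alleles of this direction (log2 ratio 3.97, adjusted p = 1.42e-05 by edgeR).

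Of the alleles lower in number 1, C609T stood at 0.159% to 0.330% in number 1, with a median of 0.183%. In number 2 it stood at 4.90% to 7.89%, with a median of 6.78%. The highest fraction of any allele of the gene was this 7.89%, in Thy replicate 2. The means were 0.221% ± 0.0724 in number 1 and 6.66% ± 0.929 in number 2 (SD, n = 8 each; log2 ratio -5.05, adjusted p = 3.51e-08 by edgeR). G328A had 0% to 0.0953% in number 1 and 0.356% to 1.60% in number 2 (log2 ratio -4.86, adjusted p = 6.74e-06 by edgeR). Its neighbour A329G had 0.0104% to 0.149% in number 1 and 0.319% to 1.55% in number 2 (log2 ratio -3.45, adjusted p = 7.59e-05 by edgeR). These 3 alleles did not overlap between numbers, and G328A and A329G, at adjoining bases, were highest in different libraries, CD24_CD29 replicate 2 and Thy replicate 2.

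In all, 7 of the 14 alleles did not overlap between numbers, 3.54% of the 198 tested against 3.58% of all tested alleles. Of the 14, 11 had the same direction in 8 of 8 subsets. The 14 were called from these same libraries, so the shared direction adds no separate support. G272A was lower in number 1 in 8 of 8 subsets, at a mean of 0.313% ± 0.420 against 1.94% ± 1.02 in number 2 (SD, n = 8 each; adjusted p = 0.000438 by edgeR). The numbers overlapped because CD24_CD29 replicate 1 held 1.32%, above CD105 replicate 2 at 0.785%. The other alleles whose windows are shown were at lower fractions. A498G averaged 0.101% in number 1 and 0.613% in number 2 (adjusted p = 0.00103), with its highest value, 2.04%, in CD24_CD29 replicate 2. A978G averaged 0.192% in number 1 and 0.793% in number 2 (adjusted p = 0.00615). C898T averaged 0.491% in number 1 and 0.114% in number 2 (adjusted p = 0.00855), while T896C, 2 bases upstream, averaged 0.233% in number 1 and 0.817% in number 2 (adjusted p = 0.00665; all 4 by edgeR). A707G, at 0.0672% in number 1 and 0.617% in number 2, was the last of the 14 (adjusted p = 0.00351 by edgeR). Of the 14, 5 did not pass when alleles were tested with no filter on the fraction: C898T, C635T, A978G, T896C and A707G.

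**Figure D1:**
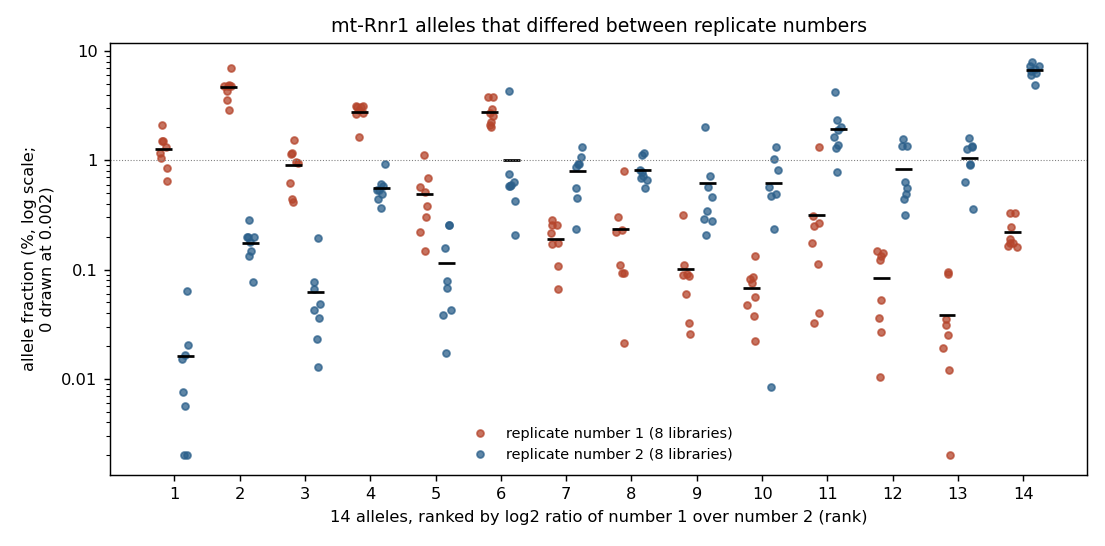
Fractions (%, log axis) of the 14 mt-Rnr1 alleles called between replicate numbers, in rank order from C416T at the left to C609T at the right, with 8 libraries of number 1 left of 8 libraries of number 2 at each rank. Points are libraries, bars are means, and a count of 0 is drawn at 0.002%. Ranks 1 to 4 and 12 to 14 show no overlap between numbers.

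Widespread alleles, those counted in all 8 libraries of a number, were few. To be counted in a library, an allele needed 5 counts and a fraction of at least 1%. In number 1 they were C227T, A315C, C635T and C954A, 4 of the 53 on the whole chromosome and 0.140% of the possible alleles of the gene against 0.108% of all possible alleles. In number 2 they were A315C and C609T, 2 of 59, or 0.0698% against 0.121%. A315C was thus the allele of the gene counted in all 16 libraries. It stood at 1.22% to 1.93% in number 1 (median 1.48%) and at 1.10% to 2.10% in number 2 (median 1.31%), and the numbers overlapped. Its altered base is the same as both of its neighbours.

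C635T was high in number 1 and in 1 library of number 2. It had 2.02% to 3.77% in number 1 (median 2.61%). In number 2 it had 0.207% to 0.748% in 7 libraries and 4.29% in CD24_CD29 replicate 2 (exact 95% interval 3.70% to 4.94%, 181 of 4220 counts). That library held the highest fraction of the allele among all 16. The difference between numbers passed with it included (log2 ratio 2.06, adjusted p = 0.00611 by edgeR) and did not without Thy replicate 1 (adjusted p = 0.0876 by edgeR).

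Over the gene as a whole, 198 alleles were counted in at least 1 library, 6.91% of 2865 possible ones, against 7.13% on the whole chromosome. Without Thy replicate 2, a library that stood apart, the number was 73, or 2.55% against 2.31%. The gene therefore held counted alleles about as often as the rest. Number 1 had 27 counted alleles and number 2 had 176, of which 5 were in both, 18.5% of the list of number 1 and 2.84% of that of number 2. Without Thy replicate 2, number 2 had 50 and the overlap was 4, or 14.8% of the list of number 1 and 8% of that of number 2. Most counted alleles were seen in exactly 1 library of a number: 20 in number 1 and 162 in number 2, or 40 without Thy replicate 2. The same held on the whole chromosome, for 320 of 493 in number 1 and 2909 of 3126 in number 2. Without Thy replicate 2 it was 576 of 753 there. It was thus not particular to the gene. The overlap of the lists was not set against that of the whole chromosome. Lists of this kind depend on the threshold, since in the other 15 libraries the lowest counted fraction was 1.01% to 1.51% and the highest not counted 0.856% to 0.998%.

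**Figure D2:**
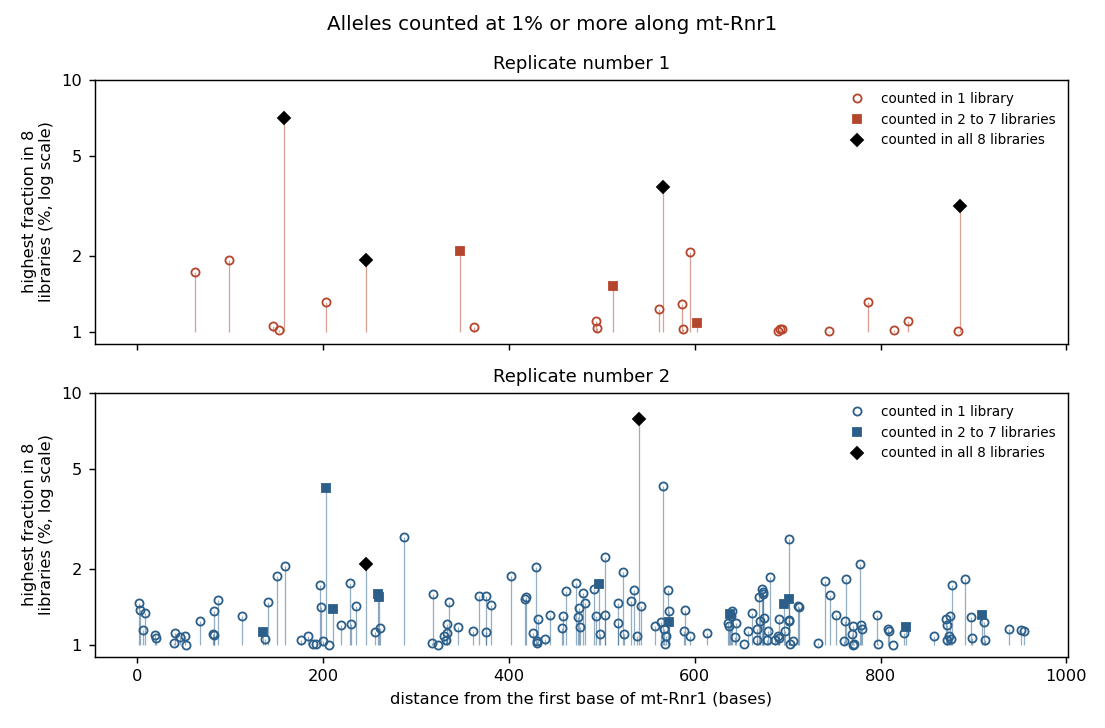
Alleles counted at 1% or more by distance from the first base of mt-Rnr1 (bases), replicate number 1 above number 2, against the highest fraction in the 8 libraries (%, log axis). Open circles were counted in 1 library, squares in 2 to 7 and diamonds in all 8. Number 1 shows 27 alleles and number 2 shows 176, most of them circles near 1%.

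Along the gene, windows of 100 bases held 2 to 16 counted alleles in the 15 libraries. The fullest was bases 501 to 600 counted from the gene's start, the window of A581G, C609T and C635T, with 16 of the 73. The mean load of the windows, defined below for the whole gene, ran from 0.413% to 0.474%, also highest in bases 501 to 600. Mean coverage there was 18572 counts per position, the lowest of the windows. The part of coverage in this count was not tested.

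Subsets differed widely in the number of counted alleles, but so did the 2 libraries of a subset. CD24_CD29 libraries held 17 in replicate 1 and 32 in replicate 2. Thy_6C3 held 6 and 17, Thy 7 and 135, 6C3 10 and 4, CD24 8 and 5, CD29 5 and 8, CD45 5 and 5, and CD105 5 and 4, in the same order of replicates. CD24_CD29 had the most in number 1 and, after Thy replicate 2, in number 2. The rest of the number did not share 10 of these in replicate 1 and 21 in replicate 2 at a counted level. Between subsets lay 46.3% of the variance (exact permutation p = 0.294 over all ways to pair the libraries, one-sided, 0.294 after adjustment over 4 measures). CD24_CD29 libraries were also the shallowest of their numbers, at mean coverages of 9959 and 5354, and the part of depth in their counts was not tested. When the lower bound of the exact 95% interval had to reach 1%, a setting chosen after seeing the data, CD24_CD29 kept 11 and 23 alleles, against 4 to 11 in the other libraries but Thy replicate 2, which kept 74.

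**Figure D3:**
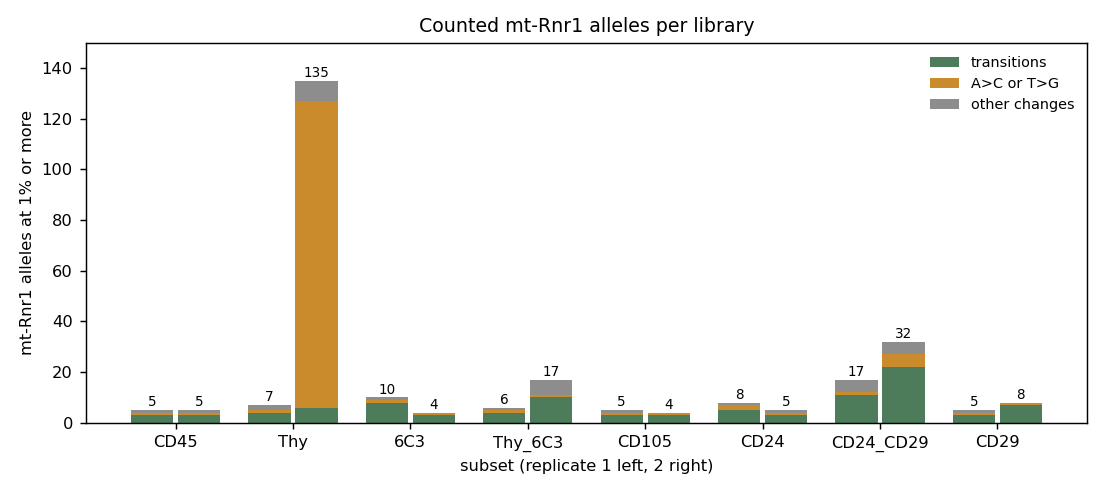
Number of mt-Rnr1 alleles counted at 1% or more in each library, replicate 1 left of replicate 2 in each subset, split into transitions, A>C or T>G changes and other changes. Thy replicate 2 reached 135, of which 121 were A>C or T>G, and the CD24_CD29 libraries 17 and 32.

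For each library, the highest of the alleles counted there and nowhere else in its number was taken. The highest in Thy replicate 1 was C655T at 1.30% (exact 95% interval 1.15% to 1.46%), against at most 0.350% in the rest of number 1. CD24 replicate 1 held T664G at 2.07% (1.80% to 2.37%), against at most 0.419% in the rest of number 1. In number 2, C655T reached 0.786% in CD24_CD29 replicate 2, and T664G was counted in Thy replicate 2, at 1.09%. CD24_CD29 replicate 1 held T168A at 1.94% (1.67% to 2.24%), against at most 0.767%. Thy_6C3 replicate 2 held A220T at 1.88% (1.63% to 2.14%), against at most 0.944% in the rest of number 2. T215C was at 1.06% in 6C3 replicate 1, T883C at 1.02% in Thy_6C3 replicate 1, T760A at 1.06% in CD45 replicate 2 and C115T at 1.07% in CD29 replicate 2. These last 4 lay close to the threshold. CD45 replicate 1, CD105 replicate 1, CD29 replicate 1, 6C3 replicate 2, CD105 replicate 2 and CD24 replicate 2 had no allele of this kind.

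Thy replicate 2 carried a different spectrum. Of its 135 counted alleles, 121 were A>C or T>G, at 80 of the 361 A positions and 41 of the 252 T positions of the gene. The mean A>C fraction was 72.1 per 10000 in this library, against 9.77 ± 1.37 per 10000 in the other 15 (SD, n = 15), and the mean T>G fraction was 62.8, against 8.65 ± 1.05. Neither range came near this library, since the highest of the 15 were 14.1 for A>C and 11.7 for T>G. The remaining transversions were also above the range of the 15: G>T at 56.4 per 10000 (highest of the 15 libraries 37.0), C>A at 53.0 (34.8), T>A at 40.1 (20.1), A>T at 39.8 (22.4), G>C at 18.4 (5.81) and C>G at 10.2 (4.87). Of the transitions, C>T was at 14.7 (13.9), and A>G, G>A and T>C lay within the range of the 15. It was not particular to the gene: at all other positions the same library had 76.8 for A>C and 66.8 for T>G. Within the gene the counted A>C changes were unevenly spread, at 38.5% of A positions that follow an A and 2.17% of those that follow a G. T>G mirrored this on the other strand, at 26.0% of T positions that precede a T and at 0 of 38 that precede a C. As mean fractions, A>C was at 89.0 per 10000 after an A and 40.1 after a G. T>G was at 76.7 before a T and 32.0 before a C. The other 15 libraries leaned the same way between these neighbours, with 11.8 against 3.60 for A>C and 10.7 against 4.45 for T>G. They did not in every context. After a C, A>C was at 11.8 in the 15 libraries, as after an A, but at 68.0 in Thy replicate 2. T>G before a G was at 7.47 in the 15 libraries and at 55.8 in Thy replicate 2. The highest allele of Thy replicate 2 counted in no other library was T847G at 2.10% (exact 95% interval 1.88% to 2.33%), and 618 more alleles of the library lay between 0.5% and 1%.

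Load sums the fractions of the altered bases at a position and averages the sums along the gene. It counts every altered base, so variants and read errors cannot be told apart in it. Load was 0.375% to 0.482% in 15 libraries and 1.09% in Thy replicate 2. In replicates 1 and 2 it was 0.482% and 0.453% in 6C3, 0.468% and 0.476% in CD24_CD29, 0.443% and 0.461% in CD29, 0.436% and 0.448% in Thy_6C3, 0.434% and 0.407% in CD45, 0.415% and 0.389% in CD105, and 0.393% and 0.375% in CD24. Thy replicate 1 had 0.449%. In both numbers CD24 was lowest, followed by CD105 and then CD45. The same order held at the other positions of the chromosome, weighted to the base composition of mt-Rnr1. Their loads were 0.403% and 0.383% in CD24, 0.428% and 0.408% in CD105, and 0.444% and 0.415% in CD45. This order was thus not particular to the gene. Over all libraries, 50.3% of the variance lay between subsets (exact permutation p = 0.251, one-sided, 0.294 adjusted over 4 measures). Without both Thy libraries it was 89.6% (exact permutation p = 0.00484, 0.0194 adjusted). Without Thy replicate 2 alone the adjusted exact permutation p was 0.0268. Alleles at 1% or more made up 0.0108% to 0.0622% of bases in the 15 libraries, so most of the load lay in alleles under 1%.

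The load of transitions alone was highest in 6C3 and CD29. It was 0.212% and 0.180% in 6C3 and 0.154% and 0.188% in CD29 (replicates 1 and 2). In the other 6 subsets it was 0.121% to 0.154%, so that Thy replicate 2, the highest of these, reached the level of CD29 replicate 1. Between subsets lay 84.2% of the variance (exact permutation p = 0.0208, one-sided), which did not pass after adjustment over 4 measures (0.0833). It passed for alleles under 1% alone (adjusted exact permutation p = 0.0164) and without both Thy libraries (0.0221). T>C had mean fractions of 33.5 and 26.8 per 10000 in 6C3 and of 22.7 and 28.1 in CD29, against 13.9 to 18.6 in the other subsets. A>G had 21.6 and 18.8 in 6C3 and 14.6 and 19.8 in CD29, against 10.9 to 15.6. Other positions of the chromosome, weighted to the base composition of mt-Rnr1, had transition loads of 0.205% and 0.172% in 6C3 and 0.153% and 0.177% in CD29, so these levels were not those of the gene alone. The transition share of counted alleles was 57.1% to 87.5% in 15 libraries and 4.44% in Thy replicate 2. Its difference between subsets did not pass (exact permutation p = 0.111, one-sided, 0.221 adjusted).

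**Figure D4:**
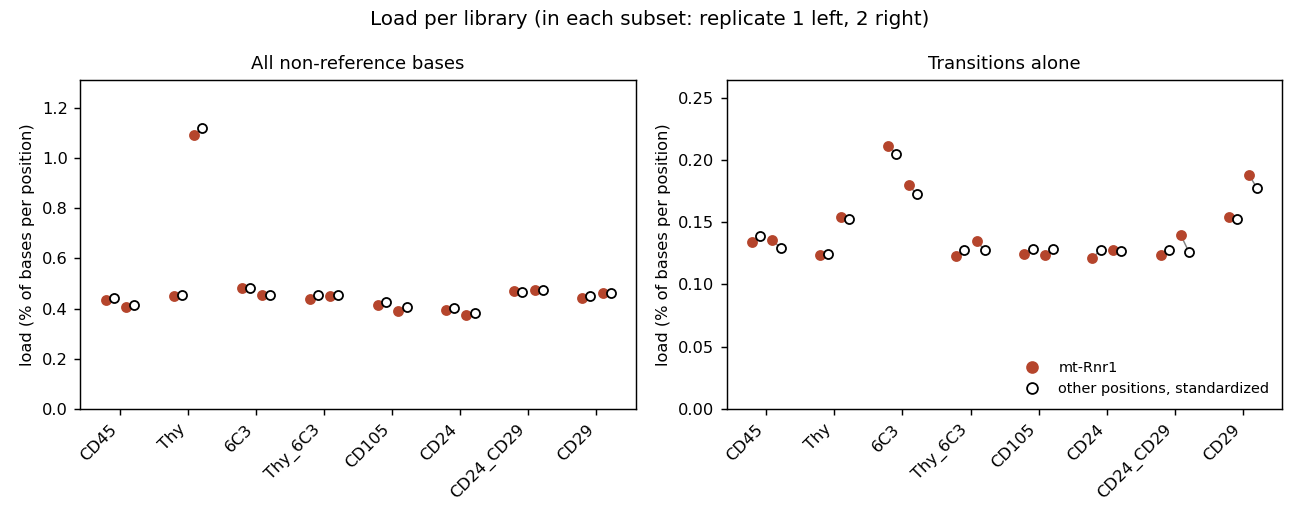
Load of all non-reference bases (left) and of transitions alone (right) in % of bases per position, for mt-Rnr1 (filled) and for all other positions weighted to its base composition (open), with replicate 1 left of replicate 2 in each subset. Thy replicate 2 stands at 1.09% in the left panel, and 6C3 and CD29 hold the highest transition loads, up to 0.212%.

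Compared with the rest of the chromosome, mt-Rnr1 had a slightly lower load. Its composition was 37.8% A, 19.7% C, 16.1% G and 26.4% T, against 34.3%, 24.7%, 12.1% and 28.9% elsewhere, so other positions were weighted to it. Load averaged 0.476% in mt-Rnr1 and 0.484% at the weighted other positions, a difference of -0.00791 percentage points ± 0.00796 (SD, n = 16). It was lower in mt-Rnr1 in 13 of 16 libraries (exact permutation p = 0.00058, two-sided, swapping values within libraries, 0.00116 adjusted over 2 measures). The direction was the same in number 1 (6 of 8 libraries lower) and in number 2 (7 of 8). For alleles under 1% alone the difference was -0.00374 (adjusted exact permutation p = 0.130). The transition load averaged 0.144% in mt-Rnr1 and 0.142% elsewhere and did not pass (exact permutation p = 0.362, 0.362 adjusted). It was lower in mt-Rnr1 in 6 of 8 libraries of number 1 and in 1 of 8 of number 2.

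By kind of change, over the 15 libraries, C>G was at 0.878 times its level elsewhere, T>A at 0.926, T>G at 0.938 and A>C at 0.946. C>G and A>C were lower in 15 of 15 libraries, T>A in 14 and T>G in 13. The remaining transversions were close to their level elsewhere, with ratios of 0.979 for C>A, 1.003 for A>T, 1.016 for G>T and 1.017 for G>C. Lower levels were therefore not shared by all transversions. Transitions were also close to their level elsewhere, with ratios of 0.996 for C>T, 0.999 for T>C, 1.01 for G>A and 1.03 for A>G. The highest mean fractions in the gene were those of the transversions G>T, at 30.2 per 10000 ± 3.20, and C>A, at 28.9 ± 3.16 (SD, n = 15). C>T, the change of C227T, C416T, C609T and C635T, averaged 12.4 ± 0.998 per 10000 in the gene.

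No allele of the gene was tied to a sorted subset by the fit over all libraries. edgeR called 0 of 198 over all subsets and 0 in each of the 8 contrasts of a subset with the mean of the other 7, as it did on the whole chromosome (0% of 3487 in each). At an unadjusted p under 0.05 it had 4 over all subsets. In single contrasts it had 94 for Thy, 17 for CD24_CD29, 5 for Thy_6C3, 3 each for CD29 and CD24, 2 for 6C3, 0 for CD45 and 1 for CD105. For Thy this was 47.5% of the gene's tested alleles, against 48.8% of all tested alleles, for CD24_CD29 8.59% against 6.31% and for Thy_6C3 2.53% against 3.15%. Over all subsets it was 2.02% against 1.52%, and in the other 5 contrasts 0% to 1.52% against 0.115% to 1.23%. DESeq2 called 1 of 198 over all subsets (0.516% of all tested alleles), 112 for Thy (58%), 4 for CD24_CD29 (1.92%) and 0 of the gene for the other contrasts. Of the 198, only 73 were counted in a library other than Thy replicate 2. The rest were tested only because they were high in that library. The Thy counts of both tools therefore cannot show a trait of the subset. T847G, among its Thy calls, stood at 0.355% in Thy replicate 1 and at 2.10% in Thy replicate 2. The allele nearest to a call outside Thy was T215C, at 0.0210% and 0.0383% in CD24_CD29 (replicates 1 and 2), against 0.1003% to 1.06% in the other 7 subsets. Both CD24_CD29 libraries lay below all others. The log2 ratio was -3.83 (adjusted p = 0.210 by edgeR, 0.00794 by DESeq2). Other alleles with the smallest p of a contrast were C115T for CD45, A637C for Thy, T215C for 6C3, T495C for Thy_6C3, T325C for CD105, A541G for CD24 and A611C for CD29, and the lowest adjusted p among them was 0.0984, for A637C (edgeR). A637C stood at 0.104% in Thy replicate 1 and at 1.01% in replicate 2, with both replicates of the other subsets at 0.0253% to 0.117%.

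The genes beside mt-Rnr1 and the other ribosomal RNA gene were described in the same way. Over the 15 libraries, 73 alleles (2.55%) were counted in mt-Rnr1. The 16S ribosomal RNA gene mt-Rnr2 held 126 (2.65%), TrnV, which carries valine, held 7 (3.38%), and TrnF, which carries phenylalanine, held 0. Mean loads were 0.435% in mt-Rnr1, 0.437% in mt-Rnr2, 0.484% in TrnV and 0.343% in TrnF. Differences between these genes were not tested. Between replicate numbers edgeR called 14 of 198 alleles in mt-Rnr1, 19 of 305 in mt-Rnr2, 2 of 12 in TrnV and 0 of 5 in TrnF. Among 15 genes of 200 positions or more, the load of mt-Rnr1, weighted to 1 base composition, was the third lowest, with COX1 lowest. The genes whose weighted load ran most like that of mt-Rnr1 over the 16 libraries were COX1, a subunit of complex IV, with a Spearman correlation of 0.985, and ND6, a subunit of complex I, with 0.971. The complex I subunit ND5 and mt-Rnr2 were tied at 0.968. All genes share the same libraries and their depth, so these values describe the libraries as much as the genes.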

How the data were processed

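The authors deposited raw counts for 16 libraries: reads over each mitochondrial position, and reads with each non-reference base there. The submitters' processing notes name BWA 0.7.17, cutadapt 2.10 and bcl2fastq 2.20, and the builds mm10 and GRCm38. How base quality, duplicate reads and nuclear copies of mitochondrial DNA were treated is not given in the sources used here, and each can change a low fraction. Per the labels, reads were paired-end, 100 bp.

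An allele fraction was its count over the coverage at the position. Subsets were compared by exact permutation over all 2027025 pairings of the libraries, one-sided, on the share of variance between subsets, adjusted over 4 measures (Benjamini-Hochberg). mt-Rnr1 was compared with other positions, weighted by reference base, by all 65536 swaps within libraries, two-sided. Per allele, edgeR 4.0.16 (quasi-likelihood test, R 4.3.3, threshold 0.05 after Benjamini-Hochberg adjustment) was fitted to all 3487 alleles at 1% or more with 5 counts in at least 1 library. Each library entered as 2 columns, its reference and its non-reference counts, with a term per library and per subset. The contrast of replicate numbers added a term for the number. DESeq2 1.42.0, other thresholds and filters, leaving out libraries and a replicate block were alternatives. The fits were also run on simulated data. The simulation of a subset difference held no difference between replicate numbers, unlike these libraries. It therefore cannot show how many subset differences were missed here. Other steps used Python 3.11.15 with scipy 1.17.1, numpy 2.4.6, matplotlib 3.10.9 and pandas 2.3.3.

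Same-numbered libraries deviated together from the subset means: the correlation over all tested alleles was above 0.1 in 28 of 28 pairs of subsets (0.343 to 0.863), and 16 of 16 libraries were closest to one of their own number. The pairing is read from the data, since the labels do not say what a number marks.

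Named alleles were the 5 with the highest mean in each number, those counted in all 8 libraries of a number, the highest found in each library alone of its number, the smallest p of each subset contrast, and the 3 with the largest ratio between numbers in each direction. The remaining alleles called between numbers, and those named for a call under another setting, were added after their values were seen. The members, lists and tests were chosen with earlier results of these data known.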

Additional observations from a re-analysis of the deposited data

Results flagged for a closer look

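Of 20 values examined, 10 lay far from the other libraries of their replicate number by Dixon's criterion for 8 values, which chance meets in about 1 of 20 groups. The 20 did not cover every named allele, and measures of the same library depend on each other. The 10 therefore cannot be set against that rate. In number 1, 6C3 replicate 1 had a transition load of 0.212% (the other 7 libraries 0.121% to 0.154%) and a transition share of 80% (57.1% to 66.7%). CD24_CD29 replicate 1 had 17 counted alleles (5 to 10) and the lowest C954A fraction, 1.65% (2.63% to 3.17%). In number 2, Thy replicate 2 had a load of 1.09% (0.375% to 0.476%), 135 counted alleles (4 to 32), a transition share of 4.44% (58.8% to 87.5%), A315C at 2.10% (1.10% to 1.44%) and C954A at 0.929% (0.370% to 0.606%). A315C is an A>C change and C954A a C>A change, and the mean fractions of both kinds of change were above the other 15 libraries in Thy replicate 2. CD24_CD29 replicate 2 had C635T at 4.29% (0.207% to 0.748%).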

How the results depend on the processing

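Between subsets, the adjusted exact permutation p of the load was 0.294 with all libraries and 0.0194 without both Thy libraries. That of the transition load was 0.0833, 0.0221 without both Thy libraries and 0.0164 for alleles under 1% alone. That of the transition share was 0.221, and 0.00456 at a threshold of 0.5%. Leaving out 1 library gave adjusted exact permutation p from 0.00129 to 0.381 for load, 0.0274 to 0.307 for transition load, 0.0101 to 0.412 for the number of alleles and 0.0274 to 0.420 for the transition share. All 4 passed without Thy replicate 1, where Thy replicate 2 is the single Thy library and has no partner to differ from. Load and transition load (0.0469) also passed without Thy replicate 2.

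Against other positions, the load difference was -0.00862 to -0.00661 with 1 library left out and -0.00374 for alleles under 1% alone. The transition difference of 0.00153 was 0.000720 to 0.00209 with 1 library left out, but -0.00130 unweighted and -0.00381 (adjusted exact permutation p = 0.0324) without the control region and transfer RNA genes. The cause was not tested.

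edgeR's 0 calls over all subsets were 0 to 126 with 1 library left out, 126 of 195 without Thy replicate 1 (64.6%, against 66.5% of all tested alleles), and 1 with DESeq2 (T215C). Its 0 calls for single subsets were 0 to 126 likewise, 116 with DESeq2 (2090 of 3487 over all tested alleles, 59.9%) and 1 with no filter on the fraction (A585C for Thy, 1 of 2 on the chromosome). Without CD24_CD29 replicate 1 it was 1 (T356A, 1 of 14 on the chromosome). Where a subset keeps 1 library, that library is assumed to vary like the others. Of the DESeq2 calls, 112 were for Thy, where many alleles were tested only because Thy replicate 2 was high. A585C and T356A were picked after their values were seen. The 14 calls between numbers were 13 to 14 with 1 library left out, 16 with DESeq2, 12 of 2860 with no filter on the fraction (0.420%, against 0.344% of all tested alleles) and 7 of 14 at 2% in 1 library (50%, against 29.9%), where fewer alleles are tested. The replicate block changed no edgeR call of the gene between subsets: it gave 0 calls over all subsets and 0 for single subsets. On the whole chromosome it gave 2 for Thy and 1 for Thy_6C3. With the block, DESeq2's calls of the gene for CD24_CD29 were 9 (4.55%, against 2.84% of all tested alleles). Without it they were 4 (2.02% against 1.92%). The block gave an adjusted exact permutation p of 0.283 for load. Under 1%, depth limits what can be read in CD24_CD29 replicate 2 most.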
